A study of Mus musculus with 7 samples.

Results

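The 31 genes described here make cholesterol, control that synthesis, or carry and process lipids, and they were found by symbol among the 31053 genes of the count matrices. They comprise 8 enzymes from acetyl-CoA to squalene, 10 enzymes from squalene to cholesterol, 3 regulators, 6 genes of lipoproteins and cholesterol efflux, 3 fatty acid enzymes and 1 gene of cholesterol turnover, and all 31 symbols were matched. The cells came from primary hippocampal cultures of postnatal day 0 (P0) mice, dissociated with trypsin and grown in medium with serum and the B-27 supplement. The labels name no genotype, strain or treatment, and no sorting step, and they list neurons, radial glia, microglia and 5 other cell types without naming astrocytes. Droplet libraries (10x Genomics, 3' chemistry, which counts each transcript once by a unique molecular identifier, UMI) were made after 1, 3, 5 and 7 days in vitro (DIV), with 1 library at DIV1 and 2 at each later day.

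Cells build cholesterol from acetyl-CoA through mevalonate, farnesyl diphosphate and squalene. The transcription factor encoded by Srebf2 drives the genes of this route when sterols are low, and the protein encoded by Insig1 holds it in the endoplasmic reticulum when they are plentiful. Cholesterol in blood does not cross the blood-brain barrier, so brain cells make their own, and astrocytes are known to release it on lipoproteins with apolipoprotein E that neurons take up. Microglia are known for apolipoprotein E, cholesterol exporters and lipoprotein lipase when they take up debris.

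Enzyme genes of this route are known to share promoter elements, so 3 promoters are shown before the values: Hmgcs1 (HMG-CoA synthase), Mvd (mevalonate diphosphate decarboxylase) and the efflux gene Abca1, which has neither motif. Each line gives the 250 bases before the annotated start, 5′ to 3′ on the gene's strand, from RefSeq (GRCm38.p6), at chr13:119690101-119690350 (plus strand), chr8:122443423-122443672 (minus strand) and chr4:53159896-53160145 (minus strand). Capitals mark the sterol-response-like core TCACNCCAC and the CCAAT box, both searched on both strands (a CCAAT box on the other strand reads ATTGG).
Hmgcs1: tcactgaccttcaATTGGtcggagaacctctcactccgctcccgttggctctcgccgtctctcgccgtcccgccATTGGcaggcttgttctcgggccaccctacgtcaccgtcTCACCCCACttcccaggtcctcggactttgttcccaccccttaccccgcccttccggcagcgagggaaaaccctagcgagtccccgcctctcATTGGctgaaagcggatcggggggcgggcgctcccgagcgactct
Mvd: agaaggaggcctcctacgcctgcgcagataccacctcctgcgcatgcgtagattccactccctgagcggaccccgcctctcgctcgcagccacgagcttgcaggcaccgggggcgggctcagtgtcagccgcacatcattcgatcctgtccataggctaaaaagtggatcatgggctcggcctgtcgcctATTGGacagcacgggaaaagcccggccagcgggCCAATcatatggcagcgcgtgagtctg
Abca1: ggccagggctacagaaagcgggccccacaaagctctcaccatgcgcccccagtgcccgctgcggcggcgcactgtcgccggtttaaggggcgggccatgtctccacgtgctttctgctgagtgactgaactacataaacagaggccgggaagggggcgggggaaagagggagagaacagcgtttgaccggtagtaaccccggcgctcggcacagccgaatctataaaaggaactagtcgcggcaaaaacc
The Hmgcs1 stretch holds the core at position -137 and 3 CCAAT boxes, the Mvd stretch holds 2 CCAAT boxes, and the Abca1 stretch holds neither. Promoters of 23 of the 31 genes were matched, 15 of them enzymes, as windows from 250 bases before to 50 after the start. Hmgcs1 was the 1 enzyme gene of 15 with the core, which 1.44% of all 27025 genes had. A CCAAT box was present for 14 of the 15 enzyme genes (93.3%), against 41.1% of all genes. The GC box GGGCGG was present for 14 of 15 as well, against 38.2% of all genes. Of the 8 other genes with a matched promoter, 6 had a CCAAT box and 5 a GC box. A match describes the letters of the window and is no measured binding site.

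The 7 libraries held 3009 to 5401 barcodes and 36226566 to 114119537 UMIs. Clusters were named from marker genes, and the thresholds of that naming were set after the clusters had been seen. Neuron-like cells numbered 5263 (141 to 1756 in a library), radial glia or astrocyte-like cells, called astrocyte-like below, 5659 (120 to 1478), and microglia or macrophage-like cells 863 (65 to 249). The clusters behind a class changed with the day. Astrocyte-like cells at DIV1 were all of cluster 11 (led by Hes5 and Vgf). In DIV3 replicate 1, 1275 of 1350 were of cluster 6, led by the stress and interferon genes Lcn2, Ifit3 and Isg15. In DIV3 replicate 2, 78 of 120 were of cluster 11 and 5 of cluster 6, so the DIV3 libraries differed in their clusters. Astrocyte-like cells of DIV5 and DIV7 were mainly of clusters 3 and 5 (Slc1a2, Gfap, Aldoc). Clusters 6 and 11 lay just inside the naming threshold, with marker scores of 0.207 and 0.220 against a minimum of 0.2. Cluster 1, led by Wisp2 and C1ql3, scored higher, at 0.294, but stayed unnamed. The fibroblast marker Ogn, and no astrocyte marker, was among its 10 leading genes. Cluster 6 had no astrocyte marker among its 10 leading genes either, but no marker of another class. Cluster 1 held 676 cells in DIV3 replicate 2, 927 in DIV5 replicate 1 and 643 in DIV7 replicate 1. The astrocyte-like class held 120, 253 and 252 there. In the other libraries cluster 1 held fewer cells than that class. The summed astrocyte markers in astrocyte-like cells stood at 5452 scaled CPM (DIV1), 7245 and 7318 (DIV3), 15782 and 23768 (DIV5) and 25197 and 35026 (DIV7). Their part in the changes with the day below was not tested. Microglia-like cells of DIV1 and of DIV3 replicate 1 were mostly of cluster 26 (Saa3, S100a8), and later ones of cluster 17 (Lyz2, C1qc, C1qb). In neuron-like cells the summed astrocyte markers were at 2.22% to 10.2% of their astrocyte-like level. However, 1 of them, Slc1a2, was at 102 scaled CPM there against 73.8 in astrocyte-like cells at DIV1. In DIV3 replicates 1 and 2 neuron-like Slc1a2 was at 107 and 153, against 127 and 137 in astrocyte-like cells. The summed neuron markers in astrocyte-like cells were at 4.70% to 8.51% of their neuron-like level, and the summed microglia markers in neuron-like cells at 0.0585% to 0.283% of their microglia-like level. Pairs of libraries shared 12 to 37 cell barcodes. The labels do not say that replicates were separate cultures, so p-values speak for the spread among these libraries only, and that spread may be technical.

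Levels are given as scaled CPM, the UMIs of a gene as CPM of all UMIs of its class in a library, after scaling between sums. They are shares of a cell class's RNA, and differences are log2 values ± SE from edgeR's quasi-likelihood test, called at a Benjamini-Hochberg adjusted p under 0.05 over all genes tested. The 18 synthesis enzymes together took the largest share of RNA in neuron-like cells and the smallest in microglia-like cells. Their summed level was 2626 ± 419.7 scaled CPM in neuron-like cells (mean ± SD, n = 7 libraries), 1666 ± 443 in astrocyte-like cells and 405 ± 193 in microglia-like cells. In neuron-like cells the sum was 2666 (DIV1), 3174 and 2871 (DIV3), 2950.01 and 2528 (DIV5) and 2189 and 2002 (DIV7). The astrocyte-like sums in the same order were 1817, 1464 and 1272, 1488 and 2582, and 1375 and 1666. The neuron-like level exceeded the astrocyte-like level in 6 of 7 libraries, by 1.20 to 2.26 times, and DIV5 replicate 2 was the exception with a ratio of 0.979. Counted per cell instead of per UMI, neuron-like cells held more enzyme UMIs in all 7 libraries, by 1.36 to 2.93 times. The microglia-like sums, from 215 to 747, did not overlap with those of the other classes in any library.

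**Figure D1:**
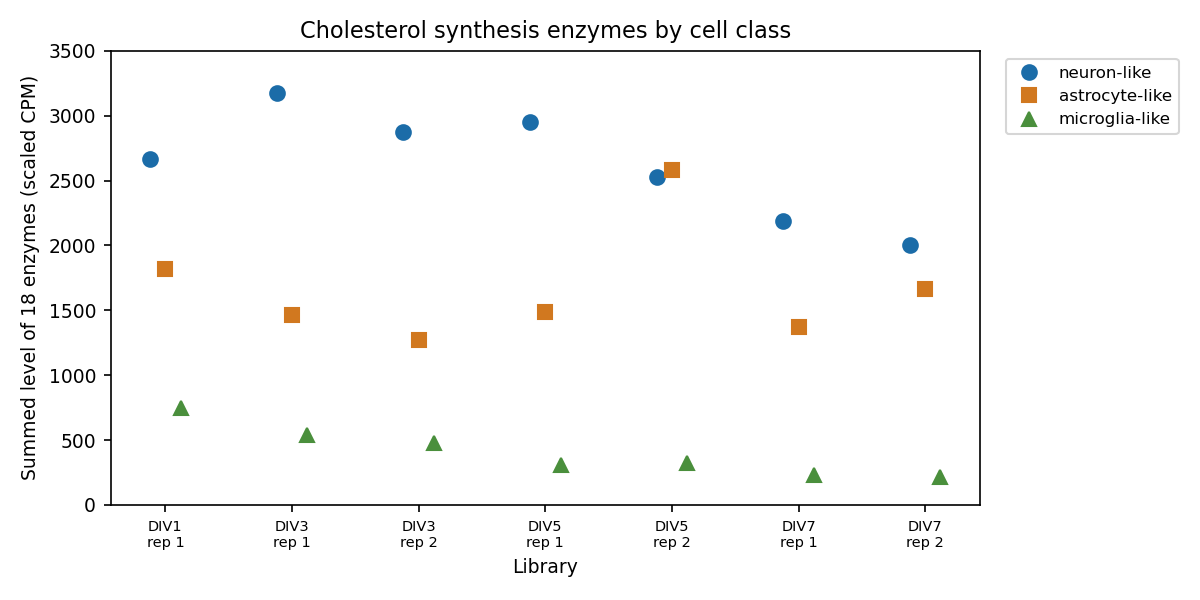
Summed level of the 18 cholesterol synthesis enzymes (scaled CPM, linear axis from 0) in each of the 7 libraries, with 1 point per library for neuron-like, astrocyte-like and microglia-like cells. Neuron-like points lie highest in every library but DIV5 replicate 2, where the neuron-like and astrocyte-like points meet, and microglia-like points lie lowest throughout.

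Of the 8 enzymes that lead to squalene, 6 were lower in astrocyte-like than in neuron-like cells over all days and 2 did not pass, and none was higher. Over the 31 genes 19 passed this test, 7 higher and 12 lower, where 63.8% of all genes tested passed, 30.6% higher and 33.3% lower. The count of 19 was near that share. Fdps (ENSMUSG00000059743), which makes farnesyl diphosphate for sterols and for protein prenylation, ranged over 224 to 750.3 scaled CPM (median 429.9) in neuron-like cells, 42.9 to 276 (median 105) in astrocyte-like cells and 14.2 to 88.9 (median 29.7) in microglia-like cells. It was lower in astrocyte-like cells in all 7 libraries, by a log2 difference of -1.94 ± 0.20 (edgeR, Benjamini-Hochberg adjusted p = 1.89e-07). Acat2, the thiolase that joins acetyl-CoA units at the start of the route, had 89.7 to 272 (median 184) scaled CPM in neuron-like and 22.3 to 68.9 (median 48.1) in astrocyte-like cells and differed by -1.97 ± 0.25. Mvd differed by -1.49 ± 0.24. These 3 were lower in every library. Pmvk, phosphomevalonate kinase, differed by -0.67 ± 0.17 and Fdft1, squalene synthase, by -0.64 ± 0.22. Mvk, mevalonate kinase, passed narrowly with -0.46 ± 0.18 and kept its call under 7 of 16 alternatives. Hmgcs1 (ENSMUSG00000093930) did not pass: its levels were 500.4 to 868 scaled CPM (median 685) in neuron-like and 280.1 to 981 (median 526) in astrocyte-like cells, with a difference of -0.46 ± 0.30 (edgeR, Benjamini-Hochberg adjusted p = 0.189). Idi1, the isomerase of isopentenyl diphosphate, had 111 to 163 (median 142) and 81.4 to 175 (median 93.8) and likewise did not pass (-0.42 ± 0.31).

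Of the 10 enzymes from squalene onward, 4 were lower in astrocyte-like cells, near the 33.3% of all genes, and 6 did not pass. Ebp, a sterol isomerase, differed most, by -1.34 ± 0.22 (edgeR, Benjamini-Hochberg adjusted p = 4.48e-05), with 21.4 to 38.8 (median 25.9) scaled CPM in neuron-like, 7.25 to 19.7 (median 9.15) in astrocyte-like and 26.0 to 58.0 (median 43.8) in microglia-like cells. The astrocyte-like values lay under the neuron-like value of the same library in all 7 libraries. The sterol reductases Tm7sf2 and Dhcr7, the latter acting at the last step, differed by -0.66 ± 0.22 and -0.59 ± 0.19. Sqle (ENSMUSG00000022351), the squalene epoxidase that commits squalene to sterols, had 125 to 205 (median 184) scaled CPM in neuron-like and 72.9 to 122 (median 107) in astrocyte-like cells, lower in 7 of 7 libraries at -0.78 ± 0.33, yet the call held under 5 of 16 alternatives. Msmo1, a methylsterol oxidase, showed no difference beyond the spread, at 171 to 256 (median 214) and 124 to 348 (median 180.2) scaled CPM and -0.07 ± 0.28. Cyp51, the lanosterol demethylase, stood at 108 to 170.3 (median 138) and 70.6 to 171 (median 89.0) (-0.40 ± 0.23). Lss, Nsdhl and Sc5d had estimates of -0.38, -0.38 and -0.21, and Hsd17b7, alone of the 18 above 0, of 0.38 ± 0.23; none of these 4 passed. The median over the 18 enzymes was -0.53, against -0.03 over all genes tested. In the annotation used, Fdps and Tm7sf2 overlap another gene on the same strand (Gm43738 and Vps51), and Cyp51, Fdft1 and Srebf1 overlap one on the opposite strand (Akap9, Ctsb and Rai1), so their counts are uncertain to that extent.

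**Figure D2:**
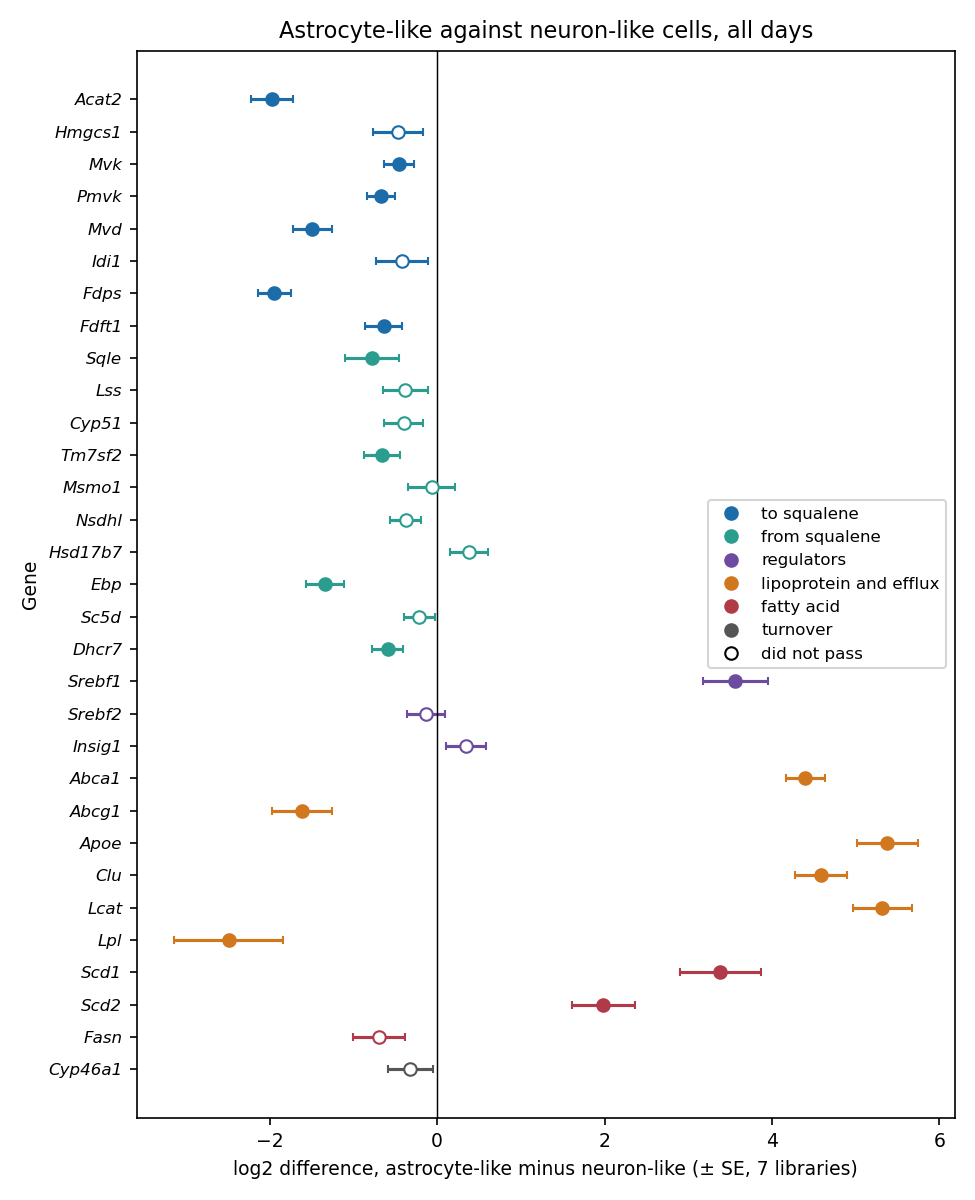
Log2 difference between astrocyte-like and neuron-like cells for each of the 31 genes (points, with bars of 1 SE from a fit over 7 libraries), coloured by role. Filled points passed the test; enzymes from Acat2 to Dhcr7 lie mostly left of 0, while Srebf1, Abca1, Apoe, Clu, Lcat, Scd1 and Scd2 lie right of it.

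Microglia-like cells had less of nearly the whole route. Against neuron-like cells 17 of 18 enzymes were lower and 1, Ebp, was higher; over all 31 genes 27 passed, where 72.3% of all genes tested passed, 35.6% higher and 36.7% lower. Against astrocyte-like cells the same 17 were lower and Ebp higher, and all 31 genes passed, where 61.8% of all genes tested passed, 30.7% higher and 31.1% lower. The median enzyme difference was -2.48 from neuron-like cells and -1.75 from astrocyte-like cells, against -0.02 and -0.01 over all genes. Sqle differed from neuron-like cells by -3.59 ± 0.39, with 2.75 to 44.4 (median 8.68) scaled CPM in microglia-like cells, and Hmgcs1 by -3.48 ± 0.34, with 31.6 to 119 (median 64.4). Neither range overlapped with that of the other classes, which adds no support beyond the test on the same values. Ebp was 1.90 ± 0.23 higher than in astrocyte-like cells, in 7 of 7 libraries. Its difference from neuron-like cells, 0.56 ± 0.22, was higher in 6 of 7 libraries and did not pass with scaling to total counts (0.12, edgeR, Benjamini-Hochberg adjusted p = 0.605). Total-count scaling moved the median of all genes between microglia-like and neuron-like cells from -0.02 to -0.46, and that between microglia-like and astrocyte-like cells from -0.01 to -0.37, so microglial differences are read against these shifts.

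The division between astrocyte-like and neuron-like cells was measured on each day. The counts of genes passing at DIV1 and DIV7, given next, were near the shares of all genes. That at DIV5 was below its share. At DIV1, with 1 library that borrows the spread of the others, 11 of the 31 genes passed, 6 higher and 5 lower in astrocyte-like cells (35.9% of all genes tested passed, 17% higher and 18.8% lower); 2 enzymes, Sqle and Ebp, were lower. At DIV3 18 genes passed, 7 higher and 11 lower (of all genes 48.1% passed, 25.8% higher and 22.3% lower), with 9 enzymes lower: Acat2, Hmgcs1, Mvd, Fdps, Fdft1, Sqle, Cyp51, Msmo1 and Nsdhl. At DIV5 13 genes passed, 9 higher and 4 lower (of all genes 51.6% passed, 27.7% higher and 23.9% lower), with 4 enzymes lower. At DIV7 17 genes passed, 9 higher and 8 lower (of all genes 52.1% passed, 28.2% higher and 23.9% lower), with 6 enzymes lower: Acat2, Mvk, Pmvk, Mvd, Fdps and Ebp. The DIV7 count was 11 without DIV7 replicate 1. Fdps was lower from DIV3 on, with neuron-like levels of 750.3 and 459.5, 429.9 and 304, and 242 and 224 scaled CPM at DIV3, DIV5 and DIV7 against astrocyte-like levels of 152 and 105, 94.3 and 109, and 42.9 and 49.4. On each of these days both neuron-like values lay above both astrocyte-like values, which adds no support beyond the test on the same values. The Fdps estimates were -2.18 ± 0.26, -1.68 ± 0.26 and -2.12 ± 0.27.

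Hmgcs1 followed another course. Astrocyte-like cells held 351 scaled CPM of Hmgcs1 (DIV1), 280.1 and 285 (DIV3), 526 and 981 (DIV5) and 528 and 618 (DIV7), and neuron-like cells held 500.4, 576 and 719.6, 868 and 752, and 685 and 668. The groups were apart at DIV3, overlapped at DIV5 and lay closer at DIV7, with estimates of -1.16 ± 0.27, 0.04 ± 0.26 and -0.04 ± 0.26. The change of the difference from DIV3 to DIV7 was 1.12 ± 0.37 and did not pass (edgeR, Benjamini-Hochberg adjusted p = 0.0933). For Msmo1 it was 1.23 ± 0.37 and did not pass either. With a stricter filter on cells the DIV5 estimate of Hmgcs1 turned to -0.74 and that of Cyp51 to -0.73. Among the enzymes Hsd17b7 alone was higher in astrocyte-like cells at DIV5 and DIV7, by 0.61 ± 0.25 and 0.98 ± 0.26, and with that filter its estimates were -0.18 and -0.38. The change of the astrocyte-neuron difference from DIV3 to DIV7 passed for 4 of the 31 genes, all upward and none an enzyme, where 5.24% of all genes tested changed, 2.93% upward and 2.31% downward: Scd1, Srebf1, Scd2 and Abca1.

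The 3 regulators divided. Srebf1 (ENSMUSG00000020538), a transcription factor mainly of fatty acid genes, was higher in astrocyte-like than in neuron-like cells in 7 of 7 libraries, by 3.56 ± 0.39 (edgeR, Benjamini-Hochberg adjusted p = 3.84e-07). In astrocyte-like cells it stood at 9.99 scaled CPM (DIV1), 24.3 and 13.96 (DIV3), 67.4 and 105 (DIV5) and 77.9 and 123 (DIV7). All neuron-like values lay between 2.40 and 5.15, and microglia-like values between 14.6 and 27.4. The later astrocyte-like values thus stood above all values of the other classes, and those of DIV1 and DIV3 replicate 2 lay below the microglia-like values of their library. Srebf2, the main driver of the cholesterol route, ranged over 104 to 159 scaled CPM (median 119.7) in neuron-like and 87.2 to 154 (median 109) in astrocyte-like cells and did not pass over all days (-0.13 ± 0.23). It passed at DIV1 alone, lower in astrocyte-like cells (-0.88 ± 0.33). Microglia-like cells, at 16.4 to 57.5 (median 38.8), had less Srebf2 than neuron-like cells (-1.97 ± 0.25). Insig1 did not pass over all days (0.34 ± 0.24), with 114 to 203 (median 136) and 106 to 314 (median 182) scaled CPM in neuron-like and astrocyte-like cells. It was higher in astrocyte-like cells at DIV5 and DIV7, by 0.79 ± 0.26 and 0.97 ± 0.26. With the stricter cell filter the DIV7 estimate of Insig1 was -0.17.

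Against neuron-like cells 4 of 6 were higher in astrocyte-like cells (Apoe, Clu, Lcat, Abca1) and 2 lower (Lpl, Abcg1), and 4 were higher in microglia-like cells (Apoe, Abcg1, Abca1, Lpl) with 2 not passing. Of all genes 30.6% were higher and 33.3% lower in astrocyte-like cells, and 35.6% were higher in microglia-like cells, so the 2 of 6 lower in astrocyte-like cells are near the share of all genes. Apoe (ENSMUSG00000002985), the main apolipoprotein of the brain, ranged over 3243 to 52436 scaled CPM (median 8566) in microglia-like cells, 799 to 5354 (median 2545) in astrocyte-like cells and 13.6 to 307 (median 57.8) in neuron-like cells. The order microglia, astrocyte, neuron held in each library, with differences of 2.39 ± 0.32 between microglia-like and astrocyte-like cells and 5.38 ± 0.36 between astrocyte-like and neuron-like cells. Neuron-like Apoe was 1.26% to 5.74% of the astrocyte-like level. Among astrocyte markers, Aqp4 and Aldoc were at 0.346% to 3.26% and 0.741% to 3.72% of their astrocyte-like levels. Fabp7 was at 2.01% to 5.52%, Gja1 at 0.790% to 9.68%, Slc1a3 at 2.28% to 14.3% and Slc1a2 at 7.68% to 138%. The part of other cells' RNA in neuron-like Apoe was not tested. Clu, apolipoprotein J, was 4.58 ± 0.31 higher in astrocyte-like cells, at 304 to 1091 (median 576) scaled CPM against 13.7 to 60.1 (median 20.0) in neuron-like and 16.0 to 80.6 (median 29.5) in microglia-like cells. Lcat, which esterifies cholesterol on lipoproteins, differed by 5.32 ± 0.35, at 8.79 to 212 (median 40.9) against 0.169 to 5.01 (median 0.793); in microglia-like cells it had 0 to 8.41 (median 1.08). The ranges of Clu and Lcat in astrocyte-like cells lay above both other classes in all libraries.

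The exporters Abca1 and Abcg1, which move cholesterol out of cells to lipoproteins, were placed differently. Abca1 (ENSMUSG00000015243) had 132 to 744 (median 283) scaled CPM in microglia-like, 67.8 to 394 (median 161) in astrocyte-like and 3.54 to 15.4 (median 5.69) in neuron-like cells. It was 4.40 ± 0.23 higher in astrocyte-like than in neuron-like cells. Its difference between microglia-like and astrocyte-like cells, 0.72 ± 0.20, was upward in 6 of 7 libraries and did not pass with total-count scaling (0.36, edgeR, Benjamini-Hochberg adjusted p = 0.151). Abcg1 (ENSMUSG00000024030) was found almost only in microglia-like cells, at 49.1 to 247 (median 125), against 0 to 1.66 (median 0.333) in astrocyte-like and 0.675 to 3.75 (median 1.246) in neuron-like cells. The difference was 7.70 ± 0.34 from astrocyte-like and 6.09 ± 0.29 from neuron-like cells (edgeR, Benjamini-Hochberg adjusted p = 6.47e-12 for the latter).

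Lpl (ENSMUSG00000015568), the lipase that frees fatty acids from lipoproteins, had 296 to 1358 (median 469) scaled CPM in microglia-like cells and 3.88 to 42.4 (median 14.3) in astrocyte-like cells. In neuron-like cells it stood at 19.3 (DIV1), 25.2 and 22.9 (DIV3), 213 and 82.1 (DIV5) and 209 and 179 (DIV7). The DIV5 and DIV7 values lay above all those of DIV1 and DIV3, and neuron-like Lpl exceeded the astrocyte-like level in every library (-2.49 ± 0.65 for astrocyte-like against neuron-like cells). Neuron-like Lpl was 1.42% to 70.5% of the microglia-like level, and the summed microglia markers were at 0.0585% to 0.283%. The part of other cells' RNA in neuron-like Lpl was not tested. Lpl was uneven among neuron-like clusters. In the glutamatergic cluster 14 (Rprml, Nrgn, Slc17a7) the DIV3 libraries had 98.5 and 68.4 CPM of all counts, those of DIV5 385 and 130.5, and those of DIV7 408 and 310.3. In the glutamatergic cluster 4 (Prox1, Neurod1) it lay between 1.11 and 4.75 in all libraries, and in the GABAergic cluster 20 between 0 and 42.7.

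**Figure D3:**
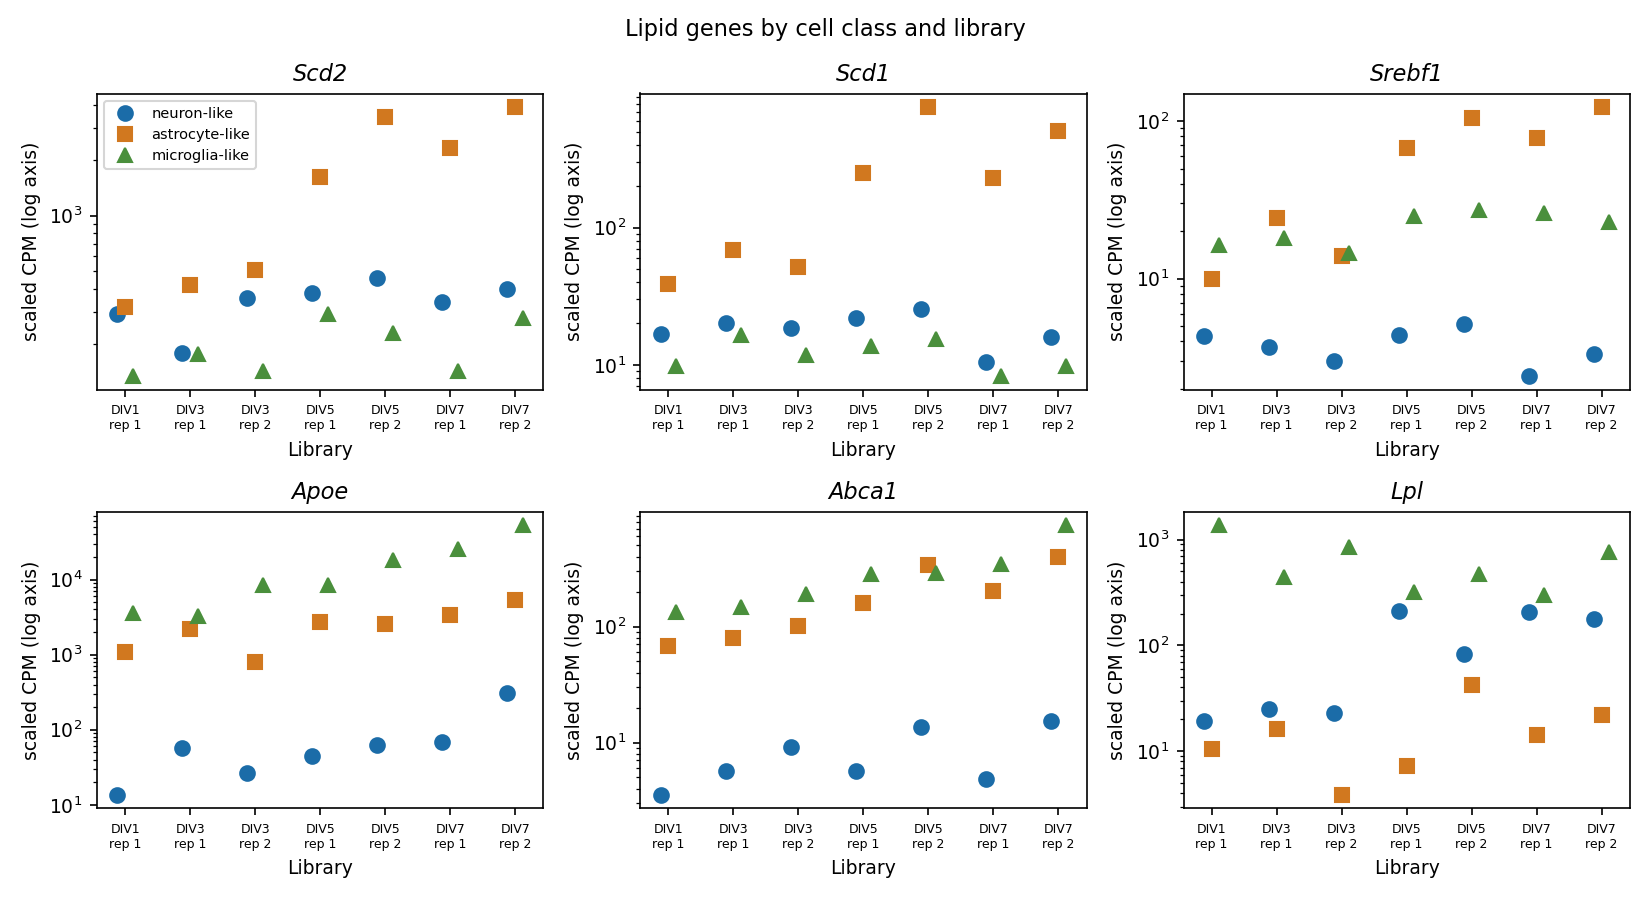
Levels of Scd2, Scd1, Srebf1, Apoe, Abca1 and Lpl (scaled CPM, log axes that differ between panels) in each library, with 1 point per library for neuron-like, astrocyte-like and microglia-like cells. Scd2, Scd1 and Srebf1 in astrocyte-like cells stand higher at DIV5 and DIV7 than at DIV1 and DIV3, and neuron-like Lpl does so too.

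Of the 3 fatty acid enzymes, Scd1 and Scd2 were higher in astrocyte-like than in neuron-like cells and Fasn did not pass. Scd2 (ENSMUSG00000025203), the main stearoyl-CoA desaturase of brain, stood in astrocyte-like cells at 319.7 scaled CPM (DIV1), 421 and 503 (DIV3), 1620.5 and 3454 (DIV5) and 2324 and 3908 (DIV7). Neuron-like levels were 179 to 459 (median 356) and microglia-like levels 133 to 291 (median 177). From DIV5 on every astrocyte-like value was above every value of the other classes, while at DIV1 the astrocyte-like and neuron-like values were 319.7 and 292. The estimate between the classes was 0.12 ± 0.45 (DIV1), 0.86 ± 0.32 (DIV3), 2.71 ± 0.34 (DIV5) and 3.23 ± 0.35 (DIV7), and its change from DIV3 to DIV7 was 2.36 ± 0.46 (edgeR, Benjamini-Hochberg adjusted p = 0.0167). Scd1 (ENSMUSG00000037071), its relative, had 38.9, 68.4 and 51.2, 251 and 757, and 231 and 502 scaled CPM in astrocyte-like cells on the same days, against 10.5 to 25.4 (median 18.5) in neuron-like cells. The change of its difference was 3.26 ± 0.45 (edgeR, Benjamini-Hochberg adjusted p = 0.00217). For Srebf1 that change was 2.74 ± 0.46 (adjusted p = 0.00547 in the same edgeR test with Benjamini-Hochberg adjustment) and for Abca1 1.53 ± 0.40 (adjusted p = 0.0387). The Abca1 change passed under 5 of 16 alternatives, and the DIV3 estimate of Scd2 did not pass without DIV3 replicate 1 (0.48).

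The clusters that made up the astrocyte-like class also differed between DIV3 and DIV7, and their part in these 4 changes was not tested. Levels by cluster are given for Scd2 only. Scd2 was at 325 CPM of all counts in cluster 11 at DIV1, 436 in cluster 6 at DIV3 replicate 1, and between 2630.4 and 4575 in cluster 3 at DIV5 and DIV7. Within cluster 5 it was 1376 and 3332 at DIV5 and 2253 and 3617 at DIV7. The unnamed cluster 1, led by Wisp2 and C1ql3, held it at 635 and 764 at DIV3 and 1613 and 1814 at DIV7. The count of 4 fell to 0 with finer clustering, with a stricter cell filter and without DIV7 replicate 2, to 1 with cluster 1 added to the class, and to 2 without DIV7 replicate 1; it was 8 without either DIV5 library. Fasn, the synthase of fatty acids, was 35.9, 48.9 and 45.8, 65.4 and 115, and 101 and 133 scaled CPM in astrocyte-like cells by day and 84.5 to 165 (median 123) in neuron-like cells. It was lower in astrocyte-like cells at DIV1 and DIV3 (-1.24 ± 0.40 and -1.27 ± 0.29) and did not pass at DIV5 (-0.46 ± 0.28) or DIV7 (0.07 ± 0.28). In microglia-like cells it ranged over 8.93 to 43.4 (median 21.5).

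Cyp46a1, the cholesterol hydroxylase through which neurons clear cholesterol, was low. It had 7.26 to 21.7 (median 13.9) scaled CPM in neuron-like and 3.37 to 16.9 (median 13.02) in astrocyte-like cells, without passing over all days (-0.32 ± 0.27), and 0 to 4.29 (median 1.83) in microglia-like cells, lower than in neuron-like cells (-3.02 ± 0.40). Neuron-like Cyp46a1 was 7.26 at DIV1 and 18.7 and 21.7 at DIV7, a rise of 1.43 ± 0.32 (edgeR, Benjamini-Hochberg adjusted p = 0.0243). Astrocyte-like Cyp46a1 rose as well, from 3.37 to 10.7 and 15.0 (1.91 ± 0.48, adjusted p = 0.0173 in the same edgeR test with Benjamini-Hochberg adjustment). From DIV3, where neuron-like Cyp46a1 was 9.88 and 11.5, the estimate of 0.90 ± 0.26 did not pass.

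Within neuron-like cells, 3 of the 31 genes changed from DIV3 to DIV7, where 7.72% of all genes tested changed, 5.26% upward and 2.46% downward. The count is near that share. Lpl rose by 3.00 ± 0.43 (edgeR, Benjamini-Hochberg adjusted p = 0.00974). Fdps fell, from 750.3 and 459.5 to 242 and 224 scaled CPM (-1.39 ± 0.27), and Fdft1 fell, from 234 and 172 to 112 and 100.1 (-0.95 ± 0.21). The groups of 2 libraries did not overlap for these 3, which were picked by the test, so this adds no support. The median of the 18 enzymes was -0.58, against -0.03 over all genes. From DIV1 to DIV7 3 genes passed, where 8.97% of all genes tested changed, 5.51% upward and 3.46% downward: Lpl (3.29 ± 0.58) and Cyp46a1 rose, and Pmvk fell from 165 to 92.9 and 101 scaled CPM (-0.80 ± 0.22). The count from DIV1 is near the share of all genes as well. Cluster 8 held 1187 of 1756 neuron-like cells at DIV1 and at most 3.67% of them in any later library. Clusters 15 and 4 held most neuron-like cells at DIV3, and clusters 14 and 4 at DIV7. The part of these clusters in the changes was not tested. The count from DIV3 was 10 without DIV3 replicate 2, 1 without any 1 of the other libraries of DIV3 and DIV7, and 0 with the stricter cell filter. It was 11 with the replicate number as a block. That from DIV1 was 8 and 9 without DIV3 replicate 1 and 2, 1 without DIV7 replicate 1 and 0 without DIV7 replicate 2.

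Within astrocyte-like cells 12 of the 31 genes changed from DIV3 to DIV7, 8 upward and 4 downward, where 22.4% of all genes tested changed, 11.3% upward and 11.1% downward. Scd2 rose by 2.81 ± 0.41 (edgeR, Benjamini-Hochberg adjusted p = 0.00501), Scd1 by 2.64 ± 0.60, Srebf1 by 2.34 ± 0.38, Fasn by 1.34 ± 0.32 and Abca1, from 80.4 and 102 to 202 and 394 scaled CPM, by 1.78 ± 0.43. Lcat went from 19.3 and 18.6 to 40.9 and 212 (2.78 ± 0.74) and Clu from 494 and 341 to 689.6 and 1091 (1.13 ± 0.31). All of these were higher in both DIV7 libraries than in both DIV3 libraries, which adds no support for genes picked by the test. Hmgcs1 was the 1 enzyme that rose (1.07 ± 0.31), while Mvk (-1.47 ± 0.28), Fdps (-1.45 ± 0.28), Acat2 (-1.19 ± 0.30) and Ebp (-1.17 ± 0.36) fell. Apoe, at 2181 and 799 and then 3404 and 5354, did not pass (1.58 ± 0.48, edgeR, Benjamini-Hochberg adjusted p = 0.0518). From DIV1 to DIV7 12 genes passed as well, 8 upward and 4 downward, where 27.9% of all genes tested changed, 13.8% upward and 14.2% downward, with Lcat (3.82 ± 1.03) and Srebf1 (3.29 ± 0.53) the largest rises and Fdps (-2.62 ± 0.33) the largest fall. The DIV3 count was 1 with finer clustering; it was 2 when DIV7 replicate 2 was dropped, 5 when DIV3 replicate 2 was, and 7 for either of the other libraries of these days. The DIV1 count was 6 when DIV7 replicate 2 was dropped.

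Within microglia-like cells Sqle alone passed from DIV3 to DIV7, of 29 genes with enough counts to test (all but Lcat and Cyp46a1), where 0.149% of all genes tested changed, 0.0279% upward and 0.121% downward. It went from 34.4 and 24.6 to 2.75 and 3.98 scaled CPM (-3.06 ± 0.44, edgeR, Benjamini-Hochberg adjusted p = 0.0472). It was lost without any 1 of 6 libraries, and 6 genes passed without DIV3 replicate 2. From DIV1 to DIV7 8 genes fell, where 4.93% of all genes tested changed, 2.09% upward and 2.84% downward: Sqle (-3.73 ± 0.49), Fdft1 (-2.54 ± 0.43), Fdps (-2.39 ± 0.38), Cyp51, Fasn, Hmgcs1, Srebf2 and Msmo1. Sqle was 44.4 at DIV1, Fdps went from 88.9 to 22.0 and 14.2 and Hmgcs1 from 119 to 31.6 and 35.8. The summed enzyme level was 747 (DIV1), 537 and 477 (DIV3), 308 and 319.9 (DIV5) and 232 and 215 (DIV7). Neuron markers in microglia-like cells moved with it: their sum was 20.1% of the neuron-like level (DIV1), then 4.29% and 5.61% (DIV3), 1.15% and 0.812% (DIV5), and 0.697% and 1.01% (DIV7). The 5 erythroid markers together were at 3197 scaled CPM in the DIV1 microglia-like cells and at most 5.15 later. The part of other cells' RNA in the fall was not tested. Cluster 26 held 70 of 73 microglia-like cells at DIV1 and 77 of 78 in DIV3 replicate 1, against 17 of 117 and 18 of 249 at DIV7. Over all libraries the enzyme sum was 519 CPM of all counts in cluster 26 and 205 in cluster 17. The part of these clusters in the fall was not tested. Cluster 17 held 3 cells at DIV1 and 1 in DIV3 replicate 1. Within cluster 17 alone the enzyme sum was 272 CPM of all counts in DIV3 replicate 2, 245 and 235 at DIV5, and 181 and 154 at DIV7. Apoe in microglia-like cells had 3615, 3243 and 8566, 8438 and 18334, and 25479 and 52436 scaled CPM by day, and its change did not pass from DIV3 (2.70 ± 0.66) or from DIV1 (3.35 ± 0.90). The DIV1 count was 0 without either DIV7 library and with the highest doublet scores removed, and 15 without either DIV3 library.

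Other genes of these pathways were counted from lists of 32 sterol and 29 fatty acid genes. Between astrocyte-like and neuron-like cells over all days, 9 of 31 tested sterol genes were higher and 12 lower, near the 30.6% and 33.3% of all genes, led by Soat1, which esterifies cholesterol for storage (2.85 ± 0.21), Mbtps2, a protease that releases SREBP factors (-1.21 ± 0.13), and the lysosomal lipase Lipa (1.66 ± 0.22). Of the 29 fatty acid genes 18 were higher and 8 lower, the latter again near the share of all genes, led by Elovl1, an elongase (3.06 ± 0.17), and the beta-oxidation genes Acadm (2.62 ± 0.15) and Hadha (2.00 ± 0.12). In microglia-like against astrocyte-like cells 15 sterol genes were higher and 13 lower, where 30.7% of all genes were higher and 31.1% lower, led by Ch25h, a cholesterol hydroxylase (10.51 ± 0.51), Lipa (4.37 ± 0.22) and the lysosomal sterol carrier Npc2 (2.35 ± 0.18). The fatty acid genes split into 4 higher and 21 lower, with Cd36 (9.16 ± 0.56), Elovl1 (1.95 ± 0.15) and the lipid droplet gene Plin2 (4.43 ± 0.35) higher. From DIV3 to DIV7 in astrocyte-like cells 10 of 29 fatty acid genes rose and none fell, where 11.3% of all genes rose and 11.1% fell, led by Elovl5 (2.27 ± 0.34), Acsl3 (1.46 ± 0.26) and Acsl6 (1.92 ± 0.36). In neuron-like cells 1 of 28 tested rose and 2 fell over the same days, where 5.26% of all genes rose and 2.46% fell.

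Across all named classes, on CPM of all counts, the enzyme sum was highest in neuron-like cells, 2938 ± 456 (mean ± SD, n = 7 libraries), followed by oligodendrocyte-like cells at 2182 ± 318 (n = 6) and astrocyte-like cells at 1774 ± 479.7. The spreads of these neighbours overlapped. Choroid plexus-like, intermediate progenitor-like and ciliated-like cells had 1349 ± 602, 1345 ± 621 (n = 5) and 1217 ± 241. Mural-like, microglia-like and fibroblast-like cells formed a lower group at 398 ± 88.7 (n = 3), 355 ± 219.8 and 279 ± 54.4 (n = 6). Srebf1 and Scd2 were also high outside astrocyte-like cells. Srebf1 was 66.4 ± 45.6 in choroid plexus-like, 65.1 ± 49.0 in astrocyte-like and 60.2 ± 39.5 in ciliated-like cells, and Scd2 was 1941 ± 1606, 1415 ± 635 and 1383 ± 932 in astrocyte-like, ciliated-like and choroid plexus-like cells. Lpl ranked highest in microglia-like (563 ± 421) and next in neuron-like cells (119.99 ± 101), and the next class, choroid plexus-like cells, had 28.6 ± 23.6.

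**Figure D4:**
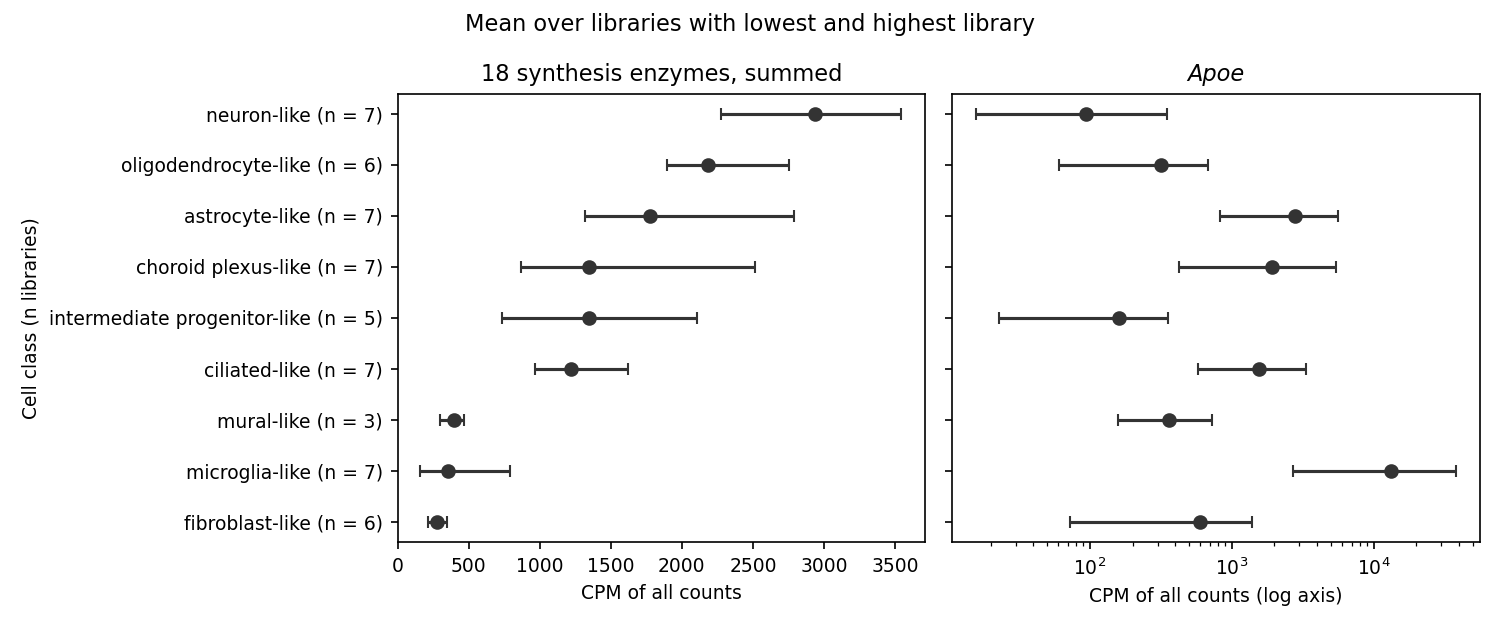
Level of the 18 summed enzymes (left, linear axis) and of Apoe (right, log axis) in CPM of all counts by named cell class; points are means over the libraries given in brackets and bars run from the lowest to the highest library. Neuron-like cells lie highest for the enzymes and lowest for Apoe.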

How the data were processed

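The authors deposited 1 matrix of raw UMI counts per library, integers without normalization, written by software version 3.0.2 per the file headers; the submitters' processing notes name Cell Ranger 4.0.0 and mm9. Barcodes under 500 detected genes or over 10% mitochondrial UMIs were dropped, and 287 doublets called by Scrublet (scanpy 1.11.5; 1.07%, 846 expected) were removed, leaving 26422 of 28846 barcodes. The mitochondrial limit removed 17.7% of barcodes in DIV7 replicate 1 and 1.38% to 5.90% in the other libraries. Clustering left out the 31 genes and the other lipid genes (2000 variable genes, 30 components, 15 neighbours, Leiden resolution 1, 36 clusters). Naming a cluster took a marker score of 0.2 or more, 1.25 times that of the next class, and 3 or more markers. No other class could have more markers among the cluster's 10 leading genes. Clusters with 2 or more cycling markers among those genes were called cycling. Clusters low in UMIs with no marker of their class among those genes stayed unnamed. These thresholds were set after clusters were seen.

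Counts were summed per library and class (at least 20 cells) and tested with edgeR 4.0.16 (TMM, filterByExpr, robust quasi-likelihood, two-sided, Benjamini-Hochberg), with library as a block between classes and a mean per day within a class, where days shared 3 residual degrees of freedom. The tests were checked on simulated data. Alternatives were DESeq2 1.42.0, total-count scaling, other filters, doublet handling, clustering and class definitions, and each library left out. All 31 genes are named, with values by library for up to 3 of highest level per role and up to 5 most changed per comparison, and of the other pathway genes up to 3 of smallest p per comparison. Members and lists were chosen with earlier results of these data known. Some genes of the pathways are not reported here.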

Additional observations from a re-analysis of the deposited data

Results flagged for a closer look

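In 4 genes the astrocyte-neuron difference itself changed from DIV3 to DIV7 by edgeR's quasi-likelihood test of that change. The log2 changes were 3.26 for Scd1, 2.74 for Srebf1, 2.36 for Scd2 and 1.53 for Abca1. Under 16 alternatives the change passed in 13 for Srebf1, 11 for Scd1, 10 for Scd2 and 5 for Abca1. The astrocyte-like class was made of other clusters at DIV3 than at DIV7, and the part of that in the change was not tested.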

How the results depend on the processing

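The 3 class comparisons over all days kept their counts within 1.5 times under every alternative run. Over 16 alternatives, astrocyte-like against neuron-like gave 14 to 27 genes (main 19). The 27 were found with called doublets kept. Leaving out 1 library each gave 14 to 22, 26 to 28 and in each case 31 genes for the astrocyte-neuron, microglia-neuron and microglia-astrocyte comparisons, 9 to 13, 12 to 18, 12 to 17 and 11 to 19 for DIV1, DIV3, DIV5 and DIV7, 0 to 8 for the change of the difference, 1 to 10, 2 to 13 and 0 to 6 for DIV7 against DIV3 in neuron-like, astrocyte-like and microglia-like cells, and 0 to 9, 6 to 13 and 0 to 15 for DIV7 against DIV1.

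Counts that moved by over 1.5 times were as follows, and the cause was not tested. The change of the difference (4) gave 9 with no low-count filter, 0 with a stricter cell filter, 1 with doublets kept, 0 with finer clustering and 1 with the Wisp2-led cluster added. From DIV3 to DIV7, neuron-like cells (3) gave 10 with no low-count filter and 0 with the stricter cell filter. Astrocyte-like cells (12) gave 6 with the stricter filter, 2 with doublets kept, 1 with finer clustering and 5 with the Wisp2-led cluster. Microglia-like cells (1) gave 4 with DESeq2, 11 with no low-count filter, and 0 under 3 others (stricter cell filter, doublets kept, highest doublet scores removed). From DIV1 to DIV7, neuron-like cells (3) gave 6 with DESeq2, 11 with no low-count filter and 0 with the stricter cell filter. Microglia-like cells (8) gave 13 with total-count scaling, 18 with no low-count filter, 1 with doublets kept and 0 with top scores removed. Estimates that turned with the stricter cell filter were Hmgcs1 -0.74, Cyp51 -0.73 and Hsd17b7 -0.18 at DIV5, and Hsd17b7 -0.38 and Insig1 -0.17 at DIV7. Finer clustering left under 20 astrocyte-like cells at DIV1, so it gave no value there. The astrocyte-like class of DIV3 replicate 1 went from 1350 cells to 55 with finer clustering and 84 with doublets kept, so both alternatives replace nearly all of that class. With the stricter cell filter astrocyte-like cells went from 1328 to 304 in DIV5 replicate 2 and from 1478 to 435 in DIV7 replicate 2. They rose from 120 to 131 in DIV3 replicate 2 and from 253 to 295 in DIV5 replicate 1, and fell in the other libraries. Neuron-like cells of DIV7 replicate 1 went from 403 to 68 with that filter.

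With the replicate number as a block, DIV7 against DIV3 gave 11 genes in neuron-like, 16 in astrocyte-like and 2 in microglia-like cells. The labels do not say what a number shares, and each comparison has 2 such pairs. Deviations of same-numbered libraries correlated over genes at 0.136 to 0.331 in neuron-like, 0.185 to 0.413 in astrocyte-like and 0.0417 to 0.222 in microglia-like cells. Depth limits the microglia-like sums most: 65 to 249 cells a library.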
